A study of Mus musculus with 10 samples.

Results

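H3K4me3 was examined at the promoters of 5 transcription factor genes of the trophectoderm, Tfap2a, Tfap2c, Cdx2, Hand1 and Elf5, out of 21951 protein-coding genes. The 5 genes were chosen by name with earlier results of these libraries known, and the rule that reads them uses the presence, the width and the strength of a promoter peak in each library. Those values were therefore used to choose the genes and are given as a description, with no test. A promoter was taken as the stretch between 1000 bp before and 100 bp after any TSS of the gene in GENCODE release M21 (GRCm38), and 1 bp of overlap with a peak sufficed for the gene to be called marked.

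The cells were naive extra-embryonic endoderm (nEnd), a self-renewing culture with the character of early primitive endoderm (PrE), derived from the mouse ESC reporter line OCT4-mCherry, in which a red fluorescent protein reports OCT4. They were not treated and were sorted by FACS on the reporter and on the surface receptor PDGFRA. There were 10 libraries, 4 of Oct4+ nEnd, 3 of DP nEnd, positive for both markers, and 3 of Pdgfra+ nEnd. All groups share 1 reporter line, and the cultures are grown on mouse embryonic fibroblasts. CUT&Tag cuts and tags DNA next to an antibody-bound histone mark, and the authors called peaks against IgG in each library and built 1 consensus list per population.

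Trophectoderm is the outer epithelium of the blastocyst and the source of the placental trophoblast. AP-2γ, encoded by Tfap2c, and its relative AP-2α, encoded by Tfap2a, bind DNA as dimers. Tfap2c acts in trophectoderm and trophoblast stem cells and is also known from naive pluripotent cells and germ cells. Cdx2 is a caudal-type homeobox gene that defines the trophectoderm, where it acts against Oct4. Elf5 encodes an ETS factor of trophoblast stem cells, and Hand1 a basic helix-loop-helix factor needed for trophoblast giant cells. H3K4me3 sits at CpG-rich promoters, at highest levels where genes are transcribed, and also at some silent promoters, so a peak is not a measure of expression. RNA was not analysed here.

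Promoter sequences are shown for the 3 genes with an entry in the RefSeq promoter table (GRCm38.p6), Tfap2a, Cdx2 and Elf5, of which Cdx2 was marked in some libraries, Tfap2a in few and Elf5 in none. Capitals mark CpG dinucleotides, which are dense at most promoters that carry H3K4me3. Only the stretch upstream of annotated exons is shown, in the direction of transcription. The Cdx2 stretch is chr5:147307271-147307499 on the minus strand, the Tfap2a stretch chr13:40733976-40734045 on the minus strand and the Elf5 stretch chr2:103423818-103424061 on the plus strand.
Cdx2: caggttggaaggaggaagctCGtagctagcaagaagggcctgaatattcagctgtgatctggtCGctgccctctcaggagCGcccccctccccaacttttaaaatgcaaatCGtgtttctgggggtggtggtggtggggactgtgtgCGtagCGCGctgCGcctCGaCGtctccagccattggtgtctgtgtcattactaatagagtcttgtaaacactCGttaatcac
Tfap2a: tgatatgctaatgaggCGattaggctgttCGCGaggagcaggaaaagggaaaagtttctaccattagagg
Elf5: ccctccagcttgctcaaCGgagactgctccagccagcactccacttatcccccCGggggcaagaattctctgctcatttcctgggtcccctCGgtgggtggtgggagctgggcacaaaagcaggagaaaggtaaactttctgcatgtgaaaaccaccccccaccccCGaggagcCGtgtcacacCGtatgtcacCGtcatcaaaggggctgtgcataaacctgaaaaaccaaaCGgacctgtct
The windows of the table run from 250 bases before to 50 bases after each start. In these 300 bases, the Cdx2 promoter held 18 CpG, more than 70.3% of the 32807 distinct mouse promoters in the table, whose median was 7. The Tfap2a start shown held 15 CpG, more than 65.4% of promoters. The other Tfap2a entry, whose start lies at 40734920, held 11, more than 58.6%. The Elf5 start shown held 10, more than 56.5% of promoters, and the upstream Elf5 start, at 103412098, held 3, more than 23.3%. The CpG content of Elf5 thus differed between its starts, and both were without a peak in all libraries.

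The octamer motif ATGCAAAT, the sequence that OCT4 and other POU factors bind, was searched on both strands together with 4 short motifs. These were the GC box (GGGCGG), the TATA box (its letters TATAAA), the TEAD factor motif GGAATG and the motif AGATAA, which endoderm factors such as GATA6 bind. The Cdx2 window held the octamer once, on the gene strand, with its first base 147 bases upstream of the RefSeq start, in the stretch printed. The octamer was present in 1.74% of all promoters. Both Tfap2a windows held a GC box, which 35.6% of promoters hold, and the upstream Elf5 window held GGAATG, which 14.7% hold. The TATA box and the GATA6 motif, present in 13.6% and 11.2% of promoters, had no match in the 5 windows of these genes. The motifs do not overlap each other in these windows, and a match is a description of the letters.

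The libraries differed in how many peaks they listed. Oct4+ nEnd replicates 1 to 4 held 9144, 8098, 3477 and 4887 peaks, DP nEnd held 7575 to 8836 and Pdgfra+ nEnd 6510 to 10545. Oct4+ nEnd replicate 3 stands apart, with the fewest peaks and a median highest coverage of 22 against 38 to 59 in the other Oct4+ nEnd libraries, and the deposited Oct4+ nEnd consensus rests on the other 3. Coverage was not scaled between libraries and their depth is unknown. Each peak was therefore ranked within its library and given as a percentile, with 100 for the highest peak, by total signal (coverage summed over the peak), by highest coverage and by width. Of the 6 epiblast (Epi) markers, all had a peak in each Oct4+ nEnd library, 5 to 6 in DP nEnd and 0 to 2 in Pdgfra+ nEnd, and the 7 PrE markers were all marked in each DP and Pdgfra+ nEnd library and 0 to 4 of them in the Oct4+ nEnd libraries. Of 10 fibroblast markers, Twist1 alone was marked, in 5 libraries in all, and of 7 mesoderm markers, Tbx6 alone, in 1 library, where the peak also covered the promoter of Ypel3. The libraries are bulk samples, so fewer cells with the mark and less mark per cell cannot be told apart.

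Over 5 genes and 10 libraries, 11 of 50 combinations had a promoter peak, against 37.6% of all gene and library combinations. Tfap2c was marked in 4 of 4 Oct4+ nEnd libraries and in no other. Cdx2 had a peak in 2 DP nEnd libraries of 3, in 2 Pdgfra+ nEnd libraries of 3 and in no Oct4+ nEnd library. Tfap2a was marked in 1 library of each population, and Hand1 and Elf5 in none.

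Tfap2c (ENSMUSG00000028640.11) lies on the plus strand of chromosome 2 from 172549593 to 172558622 and has 6 TSS up to 172552116. Its peak was 8939, 7891, 7067 and 8200 bp wide in Oct4+ nEnd replicates 1 to 4 (8024 ± 775, SD, n = 4, and 8343 ± 539 without replicate 3, SD, n = 3). It began 5482, 5266, 4778 and 5416 bp upstream of the first TSS, so most of the peak lay before the gene. It covered all 6 TSS in replicates 1, 2 and 4 and 5 of 6 in replicate 3.

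By width the Tfap2c peak reached percentiles of 94.6, 96.9, 95.8 and 93.0 in Oct4+ nEnd replicates 1 to 4. By total signal it was at the 80.4, 76.2, 46.1 and 56.6 percentiles (64.8 ± 16.2, SD, n = 4, and 71.1 ± 12.7 without replicate 3, SD, n = 3). By highest coverage it was at the 22.3, 11.6, 0.201 and 2.09 percentiles. The peak was thus among the widest of each library and low in height, and its total signal ranked between the other measures in each of the 4. The mean coverage over the peak was 13.2, 11.3, 3.60 and 6.38, and its highest coverage 41, 29, 8 and 15. The position of that highest coverage was not shared, lying 1751, 1052.5 and 561 bp downstream of the first TSS in replicates 1 to 3 and at −2040 bp, upstream of it, in replicate 4.

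In the 6 DP and Pdgfra+ nEnd libraries no peak lay within 100 kb of Tfap2c. The deposited consensus lists gave the same picture, with an Oct4+ nEnd peak from 172544111 to 172553049 and none in DP or Pdgfra+ nEnd. Of all genes, 41 (0.187%) had a mark in all 4 libraries of Oct4+ nEnd and nowhere else, and 561 (2.56%) had a consensus peak in Oct4+ nEnd only. Because the rule used these values, nothing is read from that share. A peak of the same total signal need not be listed in another library, since the smallest total signal listed was 50231 to 53198 in DP nEnd. That is above the 25456 of Tfap2c in Oct4+ nEnd replicate 3, and the 52304 of Tfap2c in replicate 4 lies within that range. In Pdgfra+ nEnd the smallest was 25245 to 27191, and in Oct4+ nEnd replicates 1 and 2, where Tfap2c had 117961 and 89377, it was 29610 and 22341. The part of these floors in the absence of a peak was not tested.

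**Figure D1:**
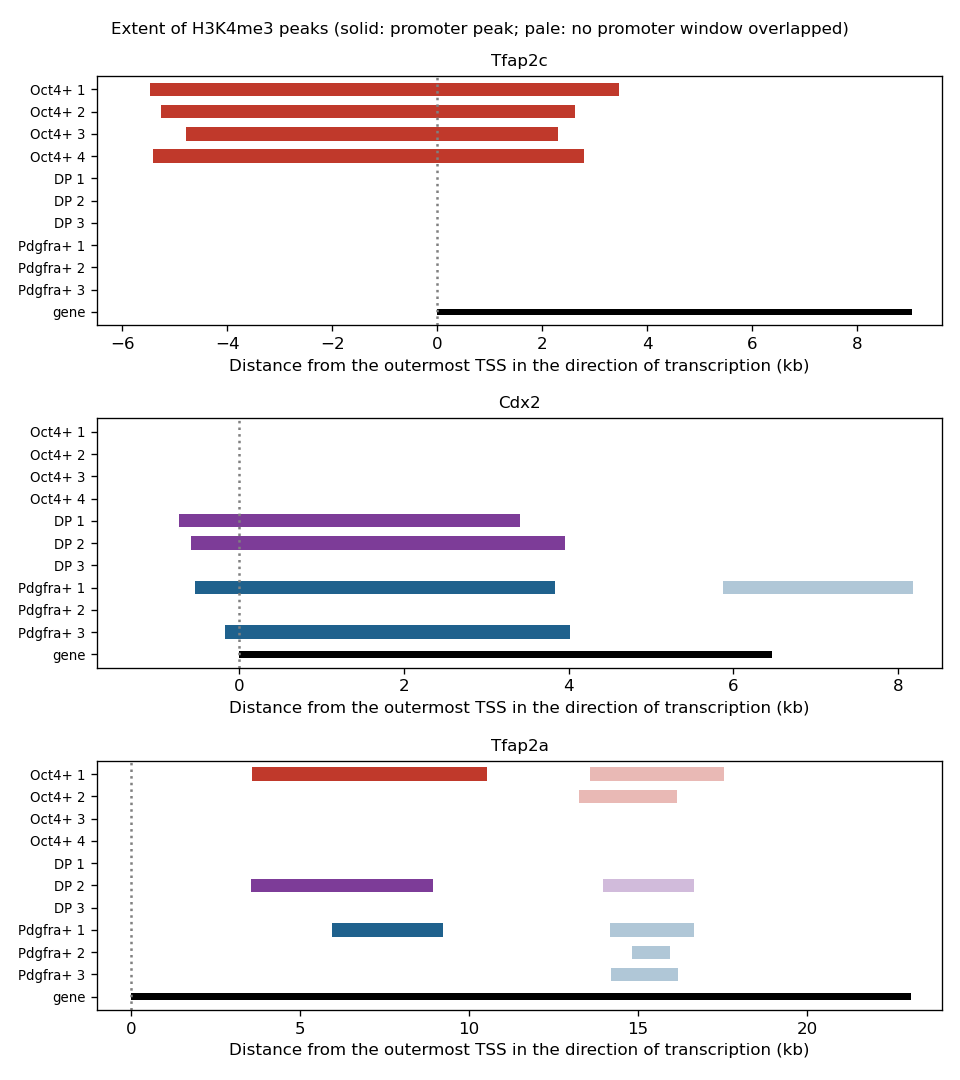
Extent of the H3K4me3 peaks at Tfap2c, Cdx2 and Tfap2a in each of the 10 libraries, in kb from the outermost TSS in the direction of transcription. Solid bars are promoter peaks, pale bars are peaks that overlap no promoter window of the gene, and the black bar is the gene. Tfap2c has a peak in the 4 Oct4+ nEnd libraries that reaches 4778 to 5482 bp upstream, Cdx2 has a promoter peak in 2 DP nEnd and 2 Pdgfra+ nEnd libraries, and Tfap2a has one in 1 library of each population.

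The genes whose percentiles by total signal were most like those of Tfap2c, with libraries without a peak set at 0, were Tcea3, Prdm14 and Ifitm3. Their mean absolute differences over the 10 libraries were 0.888, 1.63 and 2.50 percentile points. Each was marked in 4 of 4 Oct4+ nEnd libraries and in 0 of 6 others, and the libraries share their depth and peak number across genes.

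Cdx2 (ENSMUSG00000029646.3) lies on the minus strand of chromosome 5 from 147300805 to 147307270 and has 1 TSS, at the higher coordinate. In DP nEnd its peak was 4131 bp wide in replicate 1 and 4535 bp in replicate 2, and replicate 3 had none. In Pdgfra+ nEnd it was 4373 bp wide in replicate 1 and 4197 bp in replicate 3, and replicate 2 had none. The 4 peaks reached 726, 583, 535 and 174 bp upstream of the TSS, in that order of libraries, and 3404 to 4022 bp downstream. They covered 52.7% to 62.2% of the gene, so unlike the Tfap2c peak they lay mainly within it.

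By total signal the Cdx2 peak reached percentiles of 9.83 and 24.7 in DP nEnd replicates 1 and 2. In Pdgfra+ nEnd it was at the 50.6 percentile in replicate 1 and the 24.2 percentile in replicate 3. The DP and Pdgfra+ nEnd values overlapped. By highest coverage it was at the 1.55 and 5.67 percentiles in the DP nEnd libraries and at 27.6 and 4.37 in the Pdgfra+ nEnd libraries, and by width at 53.1, 57.8, 65.7 and 84.2. As at Tfap2c, the width ranked highest and the highest coverage lowest in each library. The highest point lay 707.5 to 955 bp downstream of the TSS in the 4 libraries, inside the gene.

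The Cdx2 promoter sequence printed above lay wholly inside the peaks of 3 of these libraries, as did the rest of its 300 base window, while the Pdgfra+ nEnd replicate 3 peak covered 245 of the 300 bases. Pdgfra+ nEnd replicate 1 also had a second peak at the end of the gene, from 147299094 to 147301394, at the 0.294 percentile by total signal. No other peak lay within 100 kb of Cdx2 in any library. The consensus lists held a peak of 4678 bp in DP nEnd and of 4558 bp in Pdgfra+ nEnd and none in Oct4+ nEnd.

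Of all genes, 520 (2.37%) resembled Cdx2 in having no Oct4+ nEnd mark and a mark in at least 2 libraries each of DP nEnd and Pdgfra+ nEnd, and 973 (4.43%) had a consensus peak in DP and Pdgfra+ nEnd and not in Oct4+ nEnd. The libraries without a Cdx2 peak, DP nEnd replicate 3 and Pdgfra+ nEnd replicate 2, held the fewest peaks of their populations, 7575 and 6510. The part of peak number in this was not tested. With the same number of peaks kept in every library, the 3477 with the highest total signal, Cdx2 was marked in no library, and Tfap2c was still marked in 4 of 4 Oct4+ nEnd libraries. With the upper 75% of peaks kept in each library, Cdx2 kept 0 of its DP nEnd peaks and 1 of its Pdgfra+ nEnd peaks, and with 50% of the window covered it kept both DP nEnd peaks and 1 Pdgfra+ nEnd peak. The genes most like Cdx2 in their percentiles were Sh3tc2, Stxbp6 and Tbc1d16, with mean absolute differences of 1.76, 1.88 and 1.92 percentile points over the 10 libraries.

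**Figure D2:**
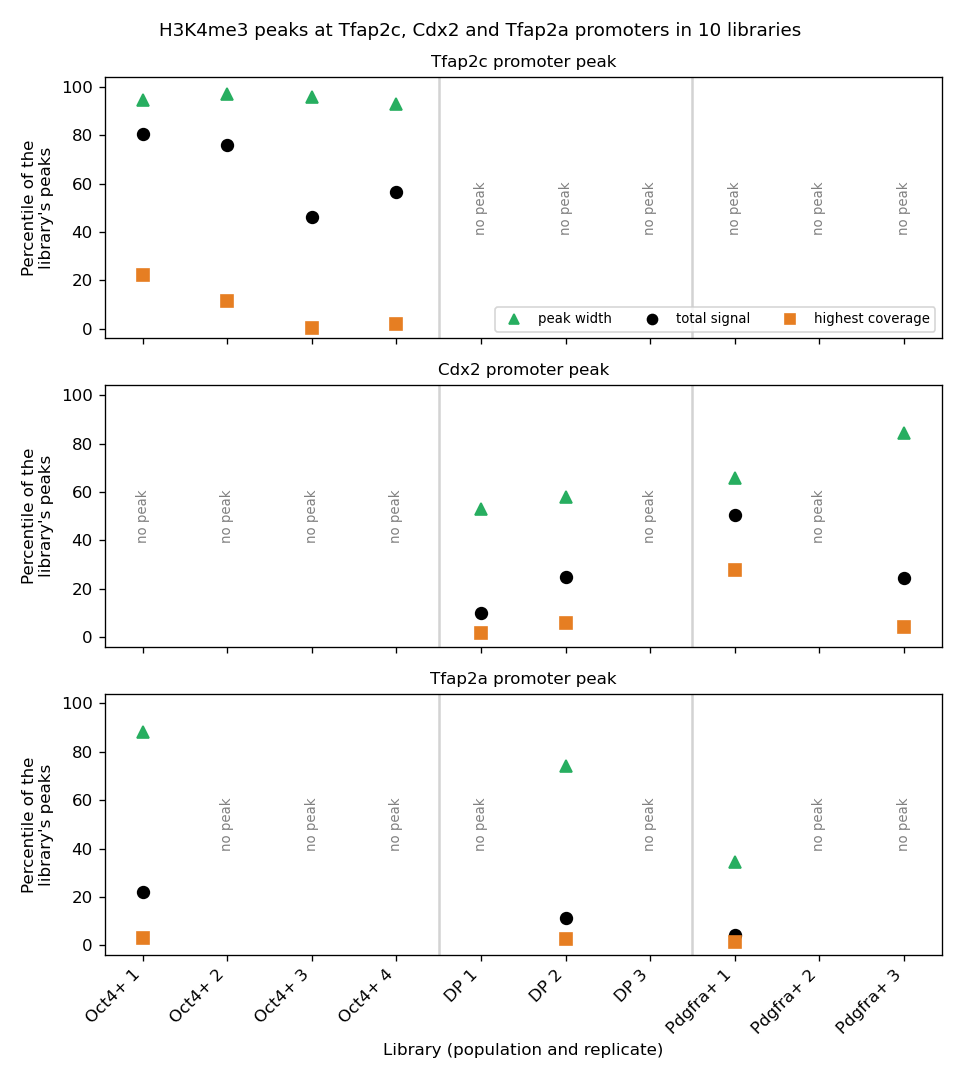
Percentile of the promoter peak among all peaks of its library (100 for the highest) for Tfap2c, Cdx2 and Tfap2a in the 10 libraries. Triangles give the width, circles the total signal and squares the highest coverage. In each library with a peak the width ranks above the total signal and the total signal above the highest coverage, as at Tfap2c in Oct4+ nEnd replicate 1, at 94.6, 80.4 and 22.3.

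Tfap2a (ENSMUSG00000021359.16) lies on the minus strand of chromosome 13 from 40715302 to 40738376 and has 9 TSS, from 40728944 to 40738376. Its promoter peak was 6952 bp wide in Oct4+ nEnd replicate 1, 5374 bp in DP nEnd replicate 2 and 3268 bp in Pdgfra+ nEnd replicate 1. It was at the 22.1, 11.4 and 4.39 percentiles by total signal in these libraries, and at 3.11, 2.74 and 1.56 by highest coverage. These 3 libraries held the most peaks of their populations, 9144, 8836 and 10545, and the part of peak number was not tested. The peaks left the outermost TSS free and covered 7, 5 and 3 of the 9 TSS. The Tfap2a start whose upstream bases are printed above lay inside the Oct4+ nEnd and DP nEnd peaks and outside the Pdgfra+ nEnd peak. In Oct4+ nEnd replicate 1 the peak also covered a promoter of Gm26688, a neighbouring transcript, and the mark cannot be divided between them.

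A second peak inside Tfap2a overlapped no promoter window of the gene and lay at a promoter of Gm47061. It was present in Oct4+ nEnd replicates 1 and 2, DP nEnd replicate 2 and all 3 Pdgfra+ nEnd libraries, at the 26.4, 5.98, 9.17, 25.7, 4.82 and 7.33 percentiles by total signal. It lay 3715 to 5286 bp outside the nearest promoter window, and these are the nearest peaks that the rule leaves out. In the consensus lists the Gm47061 peak was in Oct4+ nEnd and Pdgfra+ nEnd, and no list held a peak at a Tfap2a promoter. The genes most like Tfap2a were Ccdc28b, Acss1 and Osbpl3, with mean absolute differences of 1.01, 1.20 and 1.44 percentile points over the 10 libraries.

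Hand1 (ENSMUSG00000037335.13, minus strand of chromosome 11, 57828705 to 57832818) and Elf5 (ENSMUSG00000027186.14, plus strand of chromosome 2, 103411688 to 103450989) had no promoter peak, no peak in the gene and no consensus peak. Of all genes, 10319 (47%) were marked in no library. The nearest peak to Hand1 lay 26024 to 29615 bp from its nearest TSS in all 10 libraries and covered the promoters of Sap30l and 2010001A14Rik. It was at the 13.1 percentile by total signal in Oct4+ nEnd replicate 3 and from 54.7 to 87.8 in the others, so the region held listed peaks in every library. The nearest peak to Elf5, at the promoter of Cat, lay 33630 to 34492 bp from a TSS in 8 libraries and was missing from Oct4+ nEnd replicates 3 and 4, the libraries with the fewest peaks.

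The relatives of these genes were read in the same way. Of 8 other genes of the AP-2, CDX, HAND and epithelial ETS families, Tfap2b, Tfap2d, Tfap2e, Cdx4, Hand2 and Ehf were marked in no library, where 47% of all genes were. Cdx1 was marked in 2 of 4 Oct4+ nEnd libraries, at the 23.0 and 24.4 percentiles by total signal, and in no DP or Pdgfra+ nEnd library. Elf3, an epithelial ETS factor related to Elf5, was marked in 2 of 4 Oct4+ nEnd libraries, at 9.73 and 30.3, and in all DP and Pdgfra+ nEnd libraries, at 89.6 to 90.9 and 57.4 to 85.7.

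To test genes that the rule did not choose, the promoter rank of every gene (its percentile among all genes of a library by the total signal of its strongest promoter peak, genes without a peak tied) was fitted with limma over the 10 libraries, with Benjamini-Hochberg adjustment over all 21951 genes. The tied genes sat at a rank of 24.6 to 40.8 that depends on how many genes a library marks. The median difference over all genes was 4.86 for Oct4+ minus Pdgfra+ nEnd, 5.09 for Oct4+ minus DP nEnd and −0.23 for DP minus Pdgfra+ nEnd. Over the genes marked in at least 2 libraries, these medians were −3.10, −4.39 and −0.23. The medians over all genes are the values of a gene without a peak in any library, set by the tied ranks alone. An alternative with unmarked genes at 0 was added after this was seen, and its adjusted p follows the other where a call was lost. It added Klf5 for Oct4+ against Pdgfra+ nEnd (limma adjusted p = 0.0487) and Kctd15 for Oct4+ against DP nEnd (0.0335). Elf3 ranked lower in Oct4+ nEnd than in DP nEnd by 42.7 ± 7.13 rank points (SE, difference −42.7, limma adjusted p = 0.00925) and lower than in Pdgfra+ nEnd (difference −37.3 ± 7.13, SE, limma adjusted p = 0.0136). The second call was lost without Pdgfra+ nEnd replicate 1 or 3, when ranks were taken by highest coverage or width and when only the 2 populations were fitted (adjusted p up to 0.143 over 16 alternatives), and the first by width (adjusted p = 0.150). The other 7 family members did not pass in any comparison. Of all genes, 2.97% ranked lower in Oct4+ than in DP nEnd and 3.9% lower than in Pdgfra+ nEnd.

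AP-2 factors act with CITED coactivators and are held back by KCTD proteins. Cited2 was marked in all 10 libraries, at 49.3 to 88.3 percentiles in Oct4+ nEnd and at 96.9 to 98.2 in the others, and did not pass in any comparison. Kctd15, an inhibitor of AP-2, had a peak in all 7 Oct4+ and DP nEnd libraries and in 1 Pdgfra+ nEnd library. Its percentiles by total signal were 55.8, 51.8, 38.3 and 59.1 in Oct4+ nEnd, 7.74, 23.5 and 9.54 in DP nEnd and 15.3 in the Pdgfra+ nEnd library with a peak. Its difference between Oct4+ and DP nEnd did not pass (limma adjusted p = 0.0982). It ranked higher in Oct4+ than in Pdgfra+ nEnd by 44.0 ± 5.77 (SE, limma adjusted p = 0.00149, and 0.141 with equal numbers of peaks). Kctd1 was marked in 2 of 4 Oct4+ nEnd and all 6 other libraries and Cited4 in 1 Pdgfra+ nEnd library, and neither passed.

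The other trophectoderm genes were read from a list of 27, of which 13 encode regulators and 14 epithelial or trophoblast products. The list was chosen with earlier results of these data known. In every library 5 were marked, Tead4, Ets2, Klf5, Cdh1 and Atp1b1, where 16.5% of all genes were, and in no library 9, where 47% of all genes were. Oct4+ nEnd ranked higher than Pdgfra+ nEnd at 4 of the 27 and lower at 4, where 3.33% and 3.9% of all genes passed in these directions. Against DP nEnd it ranked higher at 3 and lower at 5, against 1.71% and 2.97% of all genes. DP nEnd ranked higher than Pdgfra+ nEnd at 3, against 0.15% of all genes, and lower at 0 by limma, with 0 at an unadjusted p under 0.05 and 0.00456% of all genes. With unmarked genes at 0, the counts were 4 and 2, 3 and 2, and 0 and 0. Among the genes that ranked higher in DP than in Pdgfra+ nEnd, Sox2 and Esrrb are also epiblast markers. Of the 6 epiblast markers, 4 ranked higher in DP nEnd in this comparison. The list medians for Oct4+ minus Pdgfra+ nEnd were 4.73 for the regulators and 4.86 for the products, beside 4.86 over all genes. For Oct4+ minus DP nEnd they were 2.39 and 5.09, beside 5.09 over all genes. The values 4.86 and 5.09 are those of a gene without a peak in any library, so nothing is read from these medians.

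The genes of this list that ranked lower in Oct4+ nEnd had, like Cdx2, no peak in any of its 4 libraries, so their ranks there were the tied ranks. Gata3, a trophectoderm factor that acts beside Cdx2, was at the 38.4, 41.6 and 21.4 percentiles in DP nEnd and at 58.2, 6.80 and 50.9 in Pdgfra+ nEnd. Its peaks also overlapped a promoter of 4930412O13Rik. It ranked lower in Oct4+ than in Pdgfra+ nEnd (difference −40.0 ± 3.68, SE, limma adjusted p = 0.000139, and 0.170 with unmarked genes at 0) and than in DP nEnd (−36.5 ± 3.68, adjusted p = 0.000358, and 0.309 with unmarked genes at 0). In that alternative, which fits percentiles of peaks, the differences were −38.6 ± 12.0 and −33.8 ± 12.0 (SE). With equal numbers of peaks, where no Gata3 peak was kept, the differences turned to 0.32 and 0.52.

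Msx2, a homeobox gene of trophoblast, was at 70.9 to 72.8 in DP nEnd and at 93.2, 55.3 and 85.5 in Pdgfra+ nEnd and ranked lower in Oct4+ nEnd against both (limma adjusted p = 6.06e-05 and 2.29e-05). Krt8 and Krt18 encode the paired keratins of simple epithelia, trophectoderm and endoderm included. Krt8 was at 70.2 to 74.9 in DP nEnd and 69.4 to 89.5 in Pdgfra+ nEnd and ranked lower in Oct4+ nEnd against both (limma adjusted p = 2.11e-05 and 8.26e-06). Msx2 and Krt8 lost these calls only when 50% of the window had to be covered, among the alternatives run. Krt18 ranked lower too (limma adjusted p = 0.000616 and 0.000215), and its calls were lost with 50% of the window covered (adjusted p = 0.247 and 0.287) and with unmarked genes at 0 (adjusted p = 0.404 and 0.231), and with equal numbers of peaks, where no Krt18 peak was kept, its differences turned to 0.52 and 0.32. Id2 passed against DP nEnd (limma adjusted p = 0.0375) and lost the call without any 1 of the 7 libraries compared, by highest coverage and with unmarked genes at 0 (adjusted p = 0.194), and its difference turned to 0.52 with equal numbers of peaks.

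Like Tfap2c, Sox2, Esrrb and Cldn4 had a peak in each Oct4+ nEnd library and in no Pdgfra+ nEnd library. Sox2 and Esrrb act in trophoblast stem cells and in the epiblast and stand in both lists, and Cldn4 encodes a tight junction protein, whose peaks also overlapped a promoter of Mettl27. Unlike Tfap2c, all 3 also had one in each DP nEnd library. Sox2 was at 98.4 to 98.7 in Oct4+ nEnd, where Tfap2c was at 46.1 to 80.4, and at 21.2 to 40.4 in DP nEnd. Cldn4 was at 90.6 to 97.3 in Oct4+ nEnd and at 5.09 to 19.4 in DP nEnd, and ranked higher in Oct4+ than in DP nEnd by 35.5 ± 2.67 (SE, limma adjusted p = 7.08e-05). The differences of all 3 genes between Oct4+ and DP nEnd did not pass when ranks were taken by width (limma adjusted p = 0.302 to 0.918). All 3 also ranked higher in DP than in Pdgfra+ nEnd (limma adjusted p = 0.000219 to 0.00128). This call was lost with equal numbers of peaks and with unmarked genes at 0. In the latter the differences for Sox2, Esrrb and Cldn4 were 29.8, 55.6 and 13.3 percentile points (limma adjusted p = 0.108, 0.0527 and 1.0). Cdh1, encoding E-cadherin, was marked everywhere and ranked 12.1 ± 1.82 higher in Oct4+ than in Pdgfra+ nEnd (SE, limma adjusted p = 0.00352, but 0.214 by width, 0.141 with equal numbers of peaks and 0.450 with unmarked genes at 0).

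**Figure D3:**
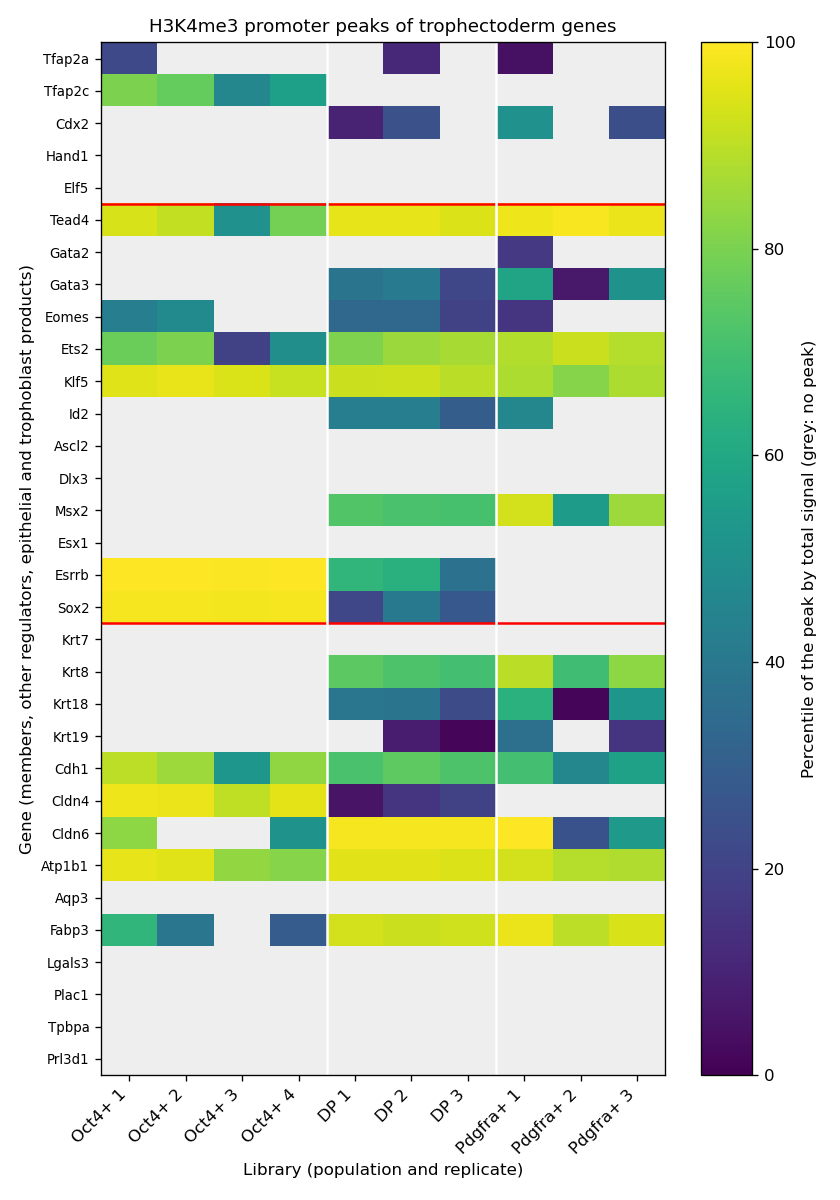
Percentile by total signal of the promoter peak of the 5 genes (top block), 13 other trophectoderm regulators and 14 epithelial or trophoblast products in each of the 10 libraries, with grey where there is no peak. Tfap2c is marked in the Oct4+ nEnd libraries alone, Hand1 and Elf5 are grey throughout with 9 genes of the other blocks, and Gata3, Msx2, Krt8 and Krt18 are marked in all DP and Pdgfra+ nEnd libraries and no Oct4+ nEnd library.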

How the data were processed

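H3K4me3 CUT&Tag was measured in 4 Oct4+, 3 DP and 3 Pdgfra+ nEnd libraries. The authors called peaks with SEACR (stringent) against IgG and deposited them with 2 coverage values (signal), the total and the highest. They also deposited 1 consensus list per population (DiffBind), which gives positions and a constant column that was not used. Submitters' processing notes name mm10, bcl2fastq 2.19.1, Bowtie2, SAMtools 1.12, bedtools 2.26.0 and deepTools. The depth is unknown, so no interval was computed.

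Groups and replicate numbers are from the titles. The genes and lists were chosen with earlier results of these data known. Named were the 5 genes, the listed genes, the 3 most similar genes for each of the 5 marked in at least 2 libraries, and genes whose promoters lie in the same peaks. By this rule Tfap2a, marked in 3 libraries, was included. Promoter windows and peak ranks were computed with Python 3.11.15 and pandas 2.3.3, and differences tested with limma 3.58.1 in R 4.3.3 after it was tested on simulated data. P-values measure the spread between these libraries. Where a population has no peak at a gene, that spread is of tied ranks, set by how many genes each library marks. The SE of Tfap2b, without a peak in any library, was 3.48 in the Oct4+ nEnd comparisons, beside 3.68 for Gata3. Alternatives were other windows, overlaps, peak numbers, measures, filters and left-out libraries. H3K4me1, H3K27ac, H3K27me3, H3K9me3 and RNA were not analysed here.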

Additional observations from a re-analysis of the deposited data

Results flagged for a closer look

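Of 37 sets of values from the 4 Oct4+ nEnd libraries that were checked for a library far from the others, 3 passed Dixon's limit, where chance gives about 1 in 20. None concerned the 5 genes. Replicate 1 had the lowest percentile of the Sox2 peak by highest coverage, 89.3 against 95.8 to 96.6. Replicate 3 had the lowest percentile of the Cdh1 peak by total signal, 52.4 against 83.6 to 89.9. Replicate 1 had the widest Cldn4 peak, 13662 bp against 6957 to 7998 bp.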

How the results depend on the processing

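The 11 marks at the 5 promoters became 4 with equal numbers of peaks and 5 with the upper 75% of peaks, and were 9 to 11 with a library left out. Tfap2c kept its 4 under all 6 settings of the promoter rule, the rule as designed included. Equal numbers of peaks keep the whole list of Oct4+ nEnd replicate 3, so that setting could not remove its peak. The rule used these values, so this is a description. Of 138 counts recomputed, 100 stayed within 1.5 times. Leaving out 1 library gave, for all genes, 937 (without Pdgfra+ nEnd replicate 3) to 1773 calls for Oct4+ against Pdgfra+ nEnd, 512 to 1140 against DP nEnd (604 or fewer without Oct4+ nEnd replicate 4 or any 1 DP nEnd library) and 28 to 114 for DP against Pdgfra+ nEnd (114 and 55 without Pdgfra+ nEnd replicates 1 and 2). Genes marked in every library of one population and none of the other numbered 390, 467 and 25 with all libraries and then 390 to 702, 467 to 803 and 31 to 250. Leaving out a library loosens both conditions, so these counts could rise but not fall. They moved by over 1.5 times without Oct4+ nEnd replicate 1 (638 against Pdgfra+ nEnd, 803 against DP nEnd), without Pdgfra+ nEnd replicate 2 (702 and 55) or replicate 1 (250) and without DP nEnd replicates 2 and 3 (45 and 39). The trophectoderm genes that passed were 8 to 9, 7 to 9 and 3 to 4. For the 3 comparisons in this order, the calls were 1587, 1026 and 34 in the fit as designed, and 728, 461 and 19 with a replicate block, although the numbers do not pair the samples (correlations of same-numbered libraries −0.196 to 0.198), and 904, 527 and 21 with unmarked genes at 0, chosen after seeing the data. With the block both Elf3 calls, Cdh1 against Pdgfra+ nEnd and Esrrb and Id2 against DP nEnd did not pass. By peak width they were 757 and 485 for the Oct4+ nEnd comparisons, with only the 2 populations 838 for Oct4+ against Pdgfra+ nEnd, and by highest coverage 21 for DP against Pdgfra+ nEnd. Equal numbers of peaks gave 17827 for Oct4+ against DP nEnd, of which 10319 had no peak in any library and moved only by their tied rank, and 144 for DP against Pdgfra+ nEnd. They also gave 879, 740 and 111 genes marked in every library of one population and none of the other. Of the 27 trophectoderm genes, those that passed were 5 and 5 in the Oct4+ nEnd comparisons with 50% of the window covered, and against DP nEnd 5 by peak width, 24 with equal numbers of peaks and 5 with unmarked genes at 0. For DP against Pdgfra+ nEnd 0 passed by limma with equal numbers of peaks and 0 with unmarked genes at 0. With equal numbers of peaks the differences of Gata3 and Krt18 turned to 0.32 against Pdgfra+ nEnd, those of Gata3, Id2 and Krt18 to 0.52 against DP nEnd, and those of Sox2 and Cldn4 to −0.21 between DP and Pdgfra+ nEnd, since no peak of theirs was kept in either population. The depth is unknown, so an unlisted peak is not shown to be an absent mark.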
